A study of Sus scrofa with 6 samples.

Results

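CTDSP2 and its relatives are protein phosphatases that act on the tail of RNA polymerase II or carry the same catalytic fold, and their transcripts were followed here in porcine 2-cell embryos with and without knockdown of SIN3A. Of 8 listed CTD phosphatase genes, 7 were found by name among the 17678 genes of the abundance table, and 3575 of those genes carry no name. SSU72 was not found by name and is not analysed here. CTDSP2 was chosen on its measured values, for a tight fall of its abundance in the knockdown, so its contrast is given as a description with no test. The others were listed for their function, and all 7 genes found passed the filter for testing, a mean abundance of 10 or more across the 6 libraries.

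The embryos were pig parthenotes, which develop from an oocyte activated without sperm. In the NC group, mature (MII) oocytes received a non-specific siRNA before activation, and in the KD group they received siRNAs against SIN3A, the scaffold of a histone deacetylase corepressor complex. Poly(A) RNA was sequenced at 32 h after activation from 3 replicates per group, each a pool of 20 embryos, so that embryos cannot be compared one by one. The number of reads assigned to the genes of the table, estimated from the spacing of the lowest values, was 10900000, 7800000 and 12900000 reads in NC and 11800000, 15800000 and 10200000 reads in KD. Values are the normalized abundances of the authors' table, which sum to between 11084950 and 11500709 per library. In whole embryos, fewer cells holding a transcript and less of it per cell cannot be told apart.

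The largest subunit of RNA polymerase II ends in a tail of repeated heptads, the C-terminal domain or CTD. Kinases phosphorylate its serines as transcription starts and proceeds, and phosphatases remove these marks so that the polymerase can be used again. CTDSP1, CTDSP2 and CTDSPL are the small phosphatases (SCPs), which prefer the serine at the fifth heptad position, act on SMAD and other regulatory proteins, and silence neuronal genes together with the repressor REST. CTDP1 (FCP1) is the phosphatase that recycles the polymerase after elongation, CTDSPL2 is a longer nuclear relative, CTDNEP1 dephosphorylates lipin at the nuclear envelope, and SSU72 and RPAP2 remove tail phosphates with folds of other kinds. In the first cell cycles of a pig embryo most mRNA was stored by the oocyte, since the embryo's own genome is switched on in earnest only later.

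The shared fold is built around the DxDxT/V signature, an aspartate that takes up the phosphate, a second aspartate after 1 further residue, and a threonine or valine. The genomic codons of this signature are shown to make visible how closely CTDSP2 resembles its relatives. Each line is the sense strand of the RefSeq coding sequence on Sscrofa11.1, 27 bases with the signature codons in capitals.
CTDSP2: gtcattGACTTGGATGAAACTcttgtg
CTDSP1: gtcatcGACCTGGATGAGACGctggtg
CTDSPL: gtcattGATTTAGATGAAACAttggtg
CTDSPL2: gttttaGACTTGGATGAAACActagta
CTDP1: atggtcGACTTGGACCAGACCttgatc
The stretches lie in coding exons at chr5:23115372-23115398 on the minus strand for CTDSP2, chr15:120452961-120452987 on the plus strand for CTDSP1, chr13:22809839-22809865 on the plus strand for CTDSPL and chr1:145800322-145800348 on the minus strand for CTDP1. That of CTDSPL2 is split by an intron within chr1:127050783-127053492 on the minus strand. The capitals start at codon 107 of CTDSP2, 96 of CTDSP1, 92 of CTDSPL, 292 of CTDSPL2 and 185 of CTDP1. The letters of the signature, sought in frame on the coding strand, occur 1 time in each of these 5 coding sequences, 0 times in SSU72 and 1 time in RPAP2, where the signature is not known to be catalytic. They occur in 13.0% of 20648 longest porcine coding sequences, so that a match by itself is common.

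CTDSP2 lies on chromosome 5 from 23111366 to 23132811 on the minus strand, with 1 annotated mRNA of 8 exons and 1644 nt. Its coding sequence of 816 nt was 68.6% identical to that of CTDSP1 and 69.6% identical to that of CTDSPL over 777 and 763 aligned bases, and CTDSP1 and CTDSPL were 72.5% identical over 735. This divergence bears on read assignment, since reads of near-identical copies cannot be separated. None of the 1614 stretches of 31 bases in the CTDSP2 mRNA occurred in an annotated mRNA of another gene, and the same held for CTDSP1, CTDSPL2, CTDP1 and RPAP2, whereas CTDSPL shared 5.86% of its stretches with the unnamed locus LOC110258110. CTDSP2 also hosts a microRNA in intron 5, shown because it is made from the same primary transcript, with its seed (bases 2 to 8) in capitals.
ssc-miR-26a: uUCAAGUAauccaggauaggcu
The 22 bases of the mature miR-26a lie at chr5:23112793-23112814 on the minus strand, according to RefSeq. Mature microRNAs have no poly(A) tail and were not measured in these libraries.

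The knockdown target was examined first. SIN3A abundance was 37361, 33964 and 32404 in the NC replicates and 3271, 1079 and 4173 in the KD replicates. All 3 KD libraries were far below every NC library, with a mean of 8.22% of NC, which matches their labels. SIN3A fell by 3.81 on the log2 scale (SE 0.31), with an adjusted p of 8.45e-06 in limma with Benjamini-Hochberg adjustment over 11986 genes. This call was lost when limma used a single prior variance for genes of every abundance (Benjamini-Hochberg adjusted p 0.423) or moderated outlying variances less (robust option, adjusted p 0.469).

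CTDSP2 abundance was 199, 213 and 224 in NC and 74.9, 67.4 and 67.0 in KD. The libraries of each group lay close together, and the groups were far apart. The NC mean of 212 ± 12.6 stood against a KD mean of 69.8 ± 4.42 (SD over 3 libraries each), which is 32.9% of the control mean and a log2 difference of -1.59. As these values chose the gene, they carry no test. Even the nearest libraries of the groups differed 2.66-fold, and the farthest differed 3.34-fold. Of all genes tested, 4.94% had every KD library below every NC library, and 5% of log2 differences lay below -0.42.

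CTDSP2 was picked for a tight fall, so its small spread within groups is part of the choice and nothing is read from it. Its coefficient of variation was 5.93% in NC and 6.33% in KD. The values correspond to about 191, 146 and 260 reads in NC and 77, 94 and 61 reads in KD, for which counting alone gives an error of 6.20% to 8.27% in NC and 10.3% to 12.8% in KD. Reads without molecular identifiers are not independent molecules, so these errors cover counting only. The SIN3A that remained differed between KD libraries. KD replicate 2 kept the least SIN3A, at 3.12% of the NC mean, and replicates 1 and 3 kept 9.46% and 12.1%, while CTDSP2 stood at 31.8%, 35.3% and 31.6% of its NC mean in replicates 2, 1 and 3. The CTDSP2 values differ by less than their counting error, and their closeness is part of the choice. They therefore cannot show whether its level goes with that of SIN3A.

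**Figure D1:**
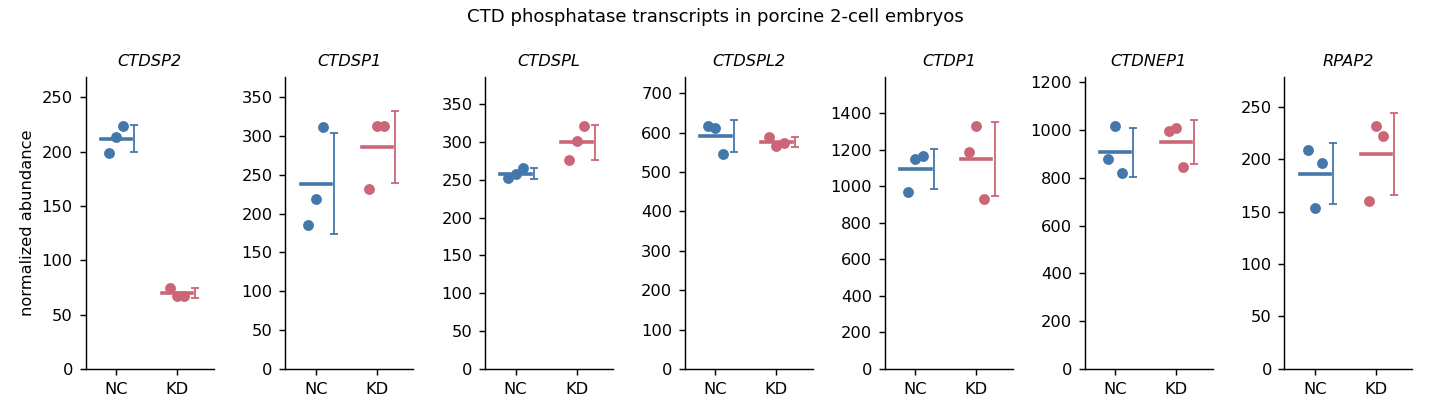
Normalized abundance (vertical axes, each from 0) of the 7 CTD phosphatases found, in NC and KD 2-cell embryos. Points are libraries, horizontal lines the means and bars the SD (n = 3 per group). CTDSP2 falls into separate groups of 199 to 224 and 67.0 to 74.9, whereas the groups of every other member overlap or, for CTDSPL, lie close together.

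CTDSP1, the small phosphatase whose protein is also known as SCP1, is found on chromosome 15 (120450649 to 120456874, plus strand). It was measured at 186, 219 and 312 in NC and 232, 313 and 313 in KD. The highest NC library was level with the upper KD libraries, so the groups overlapped. Means of 239 ± 65.5 in NC and 286 ± 46.6 in KD (SD over 3 libraries each) gave a log2 fold change of 0.28 with a 95% interval from -0.11 to 0.67. It depended on single libraries, from 0.12 without NC replicate 1 to 0.42 without KD replicate 1 and 0.49 without NC replicate 3. The difference did not pass the test, with an adjusted p of 0.997 in limma with Benjamini-Hochberg adjustment and a two-sided exact permutation p of 0.2.

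CTDSPL, known as SCP3 and as a phosphatase of the retinoblastoma protein, is found on chromosome 13 (22707736 to 22828773, plus strand). It was measured at 252, 257 and 266 in NC and 276, 301 and 321 in KD. All 3 KD libraries were above all 3 NC libraries, by a margin of a few percent at the nearest pair. The log2 fold change was 0.21 (SE 0.13), with a 95% interval from -0.07 to 0.49. It did not pass the test in limma with Benjamini-Hochberg adjustment (adjusted p 0.997), and the exact permutation p of 0.1 is the smallest that 3 libraries against 3 can give.

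CTDSPL2, on chromosome 1 from 127029445 to 127125747, was measured at 617, 610 and 544 in NC and 589, 565 and 574 in KD. The KD libraries lay within the range of the NC libraries. The log2 fold change was -0.03, with a 95% interval from -0.27 to 0.20. With 1 library left out, it ranged from -0.092 to -0.0012. CTDP1, on chromosome 1 from 145769763 to 145811673, was measured at 969, 1150 and 1164 in NC and 1189, 1332 and 929 in KD. KD replicate 3 was the lowest of all libraries and KD replicate 2 the highest, and the interval of the log2 fold change was -0.21 to 0.33.

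CTDNEP1, the lipin phosphatase, was measured at 880, 1018 and 821 in NC and 996, 1007 and 844 in KD. RPAP2, which meets the polymerase during its assembly and import into the nucleus, was measured at 209, 154 and 196 in NC and 160, 232 and 222 in KD. Both pairs of groups overlapped widely. The log2 fold change was 0.07 (95% interval from -0.17 to 0.31) for CTDNEP1 and 0.13 (95% interval from -0.25 to 0.51) for RPAP2. The direction of the small values turned when single libraries were left out. It was -0.053 for CTDP1 without KD replicate 2 and -0.025 without NC replicate 1, -0.00073 for CTDNEP1 without NC replicate 3 and -0.0019 for RPAP2 without NC replicate 2.

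None of the 6 members other than CTDSP2 passed an adjusted p of 0.05 in limma with Benjamini-Hochberg adjustment, and 0 did so at an unadjusted p of 0.05, which 4.61% of all genes tested passed. Of all 11986 genes tested, 19 genes or 0.159% were called, 7 of them higher and 12 lower in KD. Of these 6 members, 5 had a log2 fold change above 0 and 1 below it, with a median of 0.10 beside 0.0026 for all genes tested. Groups that did not overlap were seen in 1 of the 6, CTDSPL, beside 9.79% of all genes tested in either direction and 4.85% in the direction of CTDSPL. The lowest bound of the 95% intervals of all 6 was -0.27 on the log2 scale, for CTDSPL2. CTDSP2 was chosen for its log2 difference of -1.59, so its distance from these intervals is a description and no test.

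To compare the members with each other, abundances were divided by the length of the longest RefSeq mRNA. Whether the deposited values were already adjusted for length is not stated, and the CTDSP2 model is short, with 327 nt after the stop codon, so the order rests on this division. In NC, CTDP1 had the highest level of the 6 members with a length, at 290 ± 28.9 per kb (SD, n = 3), which is above 79.9% of the tested genes with a length. CTDSP2 followed at 129 ± 7.64 per kb (percentile 65.3). The libraries of CTDP1 and CTDSP2 did not overlap, and neither did those of CTDSP2 and the next member, CTDSPL2, at 92.8 ± 6.31 per kb. CTDSP1 at 88.7 ± 24.3 and RPAP2 at 80.3 ± 12.5 per kb overlapped with each other, and CTDSP1 overlapped with CTDSPL2. CTDSPL was lowest at 53.0 ± 1.38 per kb, below every RPAP2 library. CTDNEP1 matched no RefSeq gene by symbol and has no level per kb here.

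In KD the order of levels differed mainly in the place of CTDSP2. It was the second in NC and the last of 6 in KD, at 42.5 ± 2.69 per kb, below CTDSPL at 61.4 ± 4.68. By the values as deposited, without division by length, CTDSP2 was the fifth in NC and the last in KD. Its lower place in KD follows from its choice by its fall and is a description. CTDP1 remained highest at 305 ± 54.1 per kb. Between them, CTDSP1 at 106 ± 17.3, CTDSPL2 at 90.5 ± 1.92 and RPAP2 at 88.4 ± 16.8 per kb overlapped with each other, while CTDP1 above them and CTDSPL below them were apart, so that the exchange of CTDSP1 and CTDSPL2 lay within the spread of the libraries.

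Per kb of mRNA, CTDSP2 had the largest share of small phosphatase transcripts in NC embryos. Of the summed level per kb of CTDSP1, CTDSP2 and CTDSPL, its share was 50.1%, 49.2% and 44.4% in the NC replicates and 24.2%, 18.7% and 18.3% in the KD replicates. The share of CTDSP1, the largest in KD, was 28.5%, 30.8% and 37.8% in NC and 45.8%, 53.1% and 52.2% in KD. As CTDSP2 was chosen by its fall, the shift in share follows from the choice and is a description. The mean share of CTDSP2 was 47.9% ± 3.03 in NC and 20.4% ± 3.28 in KD (SD, n = 3 each), and 46.9% and 19.8% with the median instead of the longest mRNA length. Without division by length, an alternative added after seeing the data, its mean share was 30.0% in NC and 10.8% in KD, the smallest mean share of the 3 in both groups.

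The summed level of the small phosphatases was 242, 264 and 307 per kb in NC and 188, 219 and 223 per kb in KD. Per kb, the KD libraries were all lower, which the lower CTDSP2 values bring about by arithmetic. This separation rests on the division by length, which gives most weight to CTDSP2, the gene with the shortest mRNA. By the values as deposited, the summed abundances of the groups overlapped. Without CTDSP2, the sum of CTDSP1 and CTDSPL was 121, 134 and 170 per kb in NC and 143, 178 and 182 per kb in KD. These groups overlapped, with means of 142 ± 25.7 and 168 ± 21.6 per kb (SD, n = 3 each).

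**Figure D2:**
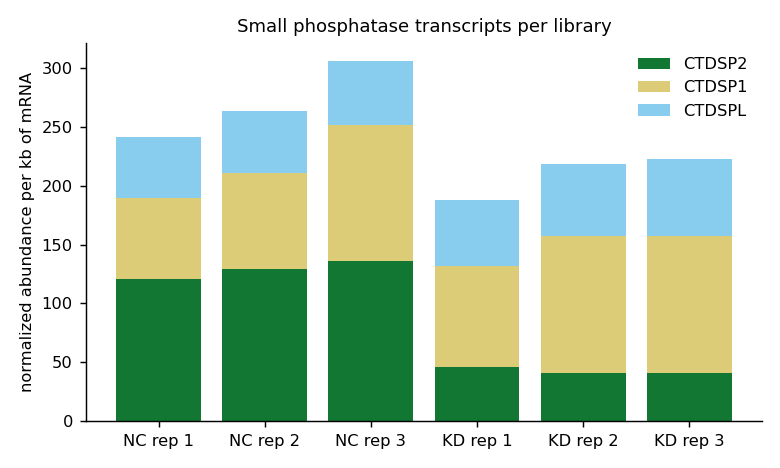
Summed level of the 3 small phosphatase transcripts in each library (normalized abundance per kb of the longest RefSeq mRNA), divided into CTDSP2, CTDSP1 and CTDSPL. The CTDSP2 block makes up 44.4% to 50.1% of each NC bar and 18.3% to 24.2% of each KD bar.

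The enzymes that put the phosphates on the tail were examined next. Of 12 listed CTD kinase genes, which comprise the kinases and their partner subunits, 11 were found and tested. None was called in limma with Benjamini-Hochberg adjustment, and 0 passed an unadjusted p of 0.05, beside 0.159% and 4.61% of all genes tested. Their median log2 fold change was -0.05. CDK7, the kinase of the initiation factor TFIIH, had the highest value at 0.06 and CDK19, a kinase of the Mediator complex, the lowest at -0.49. CDK19 was weakly detected, at 29.9, 19.2 and 31.7 in NC and 24.9, 10.3 and 24.1 in KD, and its groups overlapped. Its value moved from -0.49 to -0.10 without KD replicate 2. CDK7 stood at -0.024 without NC replicate 3 and at -0.011 without KD replicate 3. In none of the 11 were the groups apart, beside 9.79% of all genes tested.

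The bearer of the tail could be examined only in part. Of 12 RNA polymerase II subunits, 9 were found by name and 7 passed the filter, and POLR2A, which carries the tail itself, was not among those found. None was called in limma with Benjamini-Hochberg adjustment, and 1, POLR2C, passed an unadjusted p of 0.05, beside 0.159% and 4.61% of all genes tested. POLR2C, a subunit of the assembly platform, was measured at 3236, 3342 and 3340 in NC and 2874, 2687 and 2803 in KD. All KD libraries were below all NC libraries, as in 4.94% of all genes tested, with a log2 fold change of -0.25 and, in limma, an unadjusted p of 0.00887 and a Benjamini-Hochberg adjusted p of 0.852. POLR2F had the highest log2 fold change, 0.64, but was near the detection filter at 31.5, 13.3 and 20.2 in NC and 38.1, 31.2 and 28.2 in KD, and its value was 0.34 without NC replicate 2.

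Proteins that read or isomerize the phosphorylated tail were represented by 9 genes, all tested. None was called in limma with Benjamini-Hochberg adjustment, and 1, RPRD2, passed an unadjusted p of 0.05, beside 0.159% and 4.61% of all genes tested. RPRD2, one of a family of tail-binding proteins, was measured at 1557, 1320 and 1456 in NC and 1631, 1696 and 1688 in KD. The KD libraries were all higher, as in 4.85% of all genes tested, and the log2 fold change was 0.21, the highest of this list. SETD2, the histone H3 methyltransferase that rides on the elongating polymerase, had the lowest at -0.37, with overlapping groups, and stood at -0.12 without KD replicate 2.

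Among 8 partners of single phosphatases, 0 were called in limma with Benjamini-Hochberg adjustment and 0 passed an unadjusted p of 0.05, beside 0.159% and 4.61% of all genes tested. CNEP1R1, the regulatory subunit of CTDNEP1, had the lowest log2 fold change at -0.12, and SYMPK, the scaffold that binds SSU72 in the polyadenylation machinery, the highest at 0.22. Both had overlapping groups, and the median of the list was 0.02. CNEP1R1 stood at 0.011 without NC replicate 1. SYMPK stood at -0.030 without NC replicate 2 and at 0.54 without NC replicate 1. Of the other proteins with an FCP1 homology domain, UBLCP1, the proteasome phosphatase, had a log2 fold change of 0.24 with groups apart, as in 9.79% of all genes tested, and TIMM50, of the mitochondrial import machinery, had -0.10. Neither was called in limma with Benjamini-Hochberg adjustment nor passed an unadjusted p of 0.05. TIMM50 stood at 0.076 without KD replicate 2.

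Known substrates of the small phosphatases and of CTDNEP1, and factors that recruit small phosphatases, were listed as 13 genes, of which 11 passed the filter, and SMAD9 and LPIN3 were below it. None was called in limma with Benjamini-Hochberg adjustment, beside 0.159% of all genes tested. An unadjusted p of 0.05 in limma was passed by 2, REST and RCOR1, beside 4.61% of all genes tested. REST, the repressor that brings small phosphatases to neuronal genes and itself binds SIN3A, was measured at 49.0, 57.9 and 48.1 in NC and 75.0, 88.5 and 64.9 in KD. The groups did not overlap, and the log2 fold change was 0.54 with, in limma, an unadjusted p of 0.0343 and a Benjamini-Hochberg adjusted p of 0.997. RCOR1, the CoREST subunit that works beside REST, was 2946, 2783 and 2925 in NC and 3377, 3192 and 3252 in KD, a log2 fold change of 0.18 with groups apart.

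LPIN2, a lipin and so a CTDNEP1 type substrate, was the reverse of REST, with all KD libraries lower by a log2 fold change of -0.09. SMAD4, the common SMAD, had the lowest log2 fold change of the substrates at -0.35, with overlapping groups, and stood at -0.10 without NC replicate 1 and at -0.53 without NC replicate 3. The median of the 11 genes was 0.11. With 2 of 11 groups apart upward and 1 downward, the list stood beside 4.85% upward and 4.94% downward among all genes tested. RCOR1 and LPIN2, with groups apart but neither highest nor lowest of their list, were named after their values were seen.

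**Figure D3:**
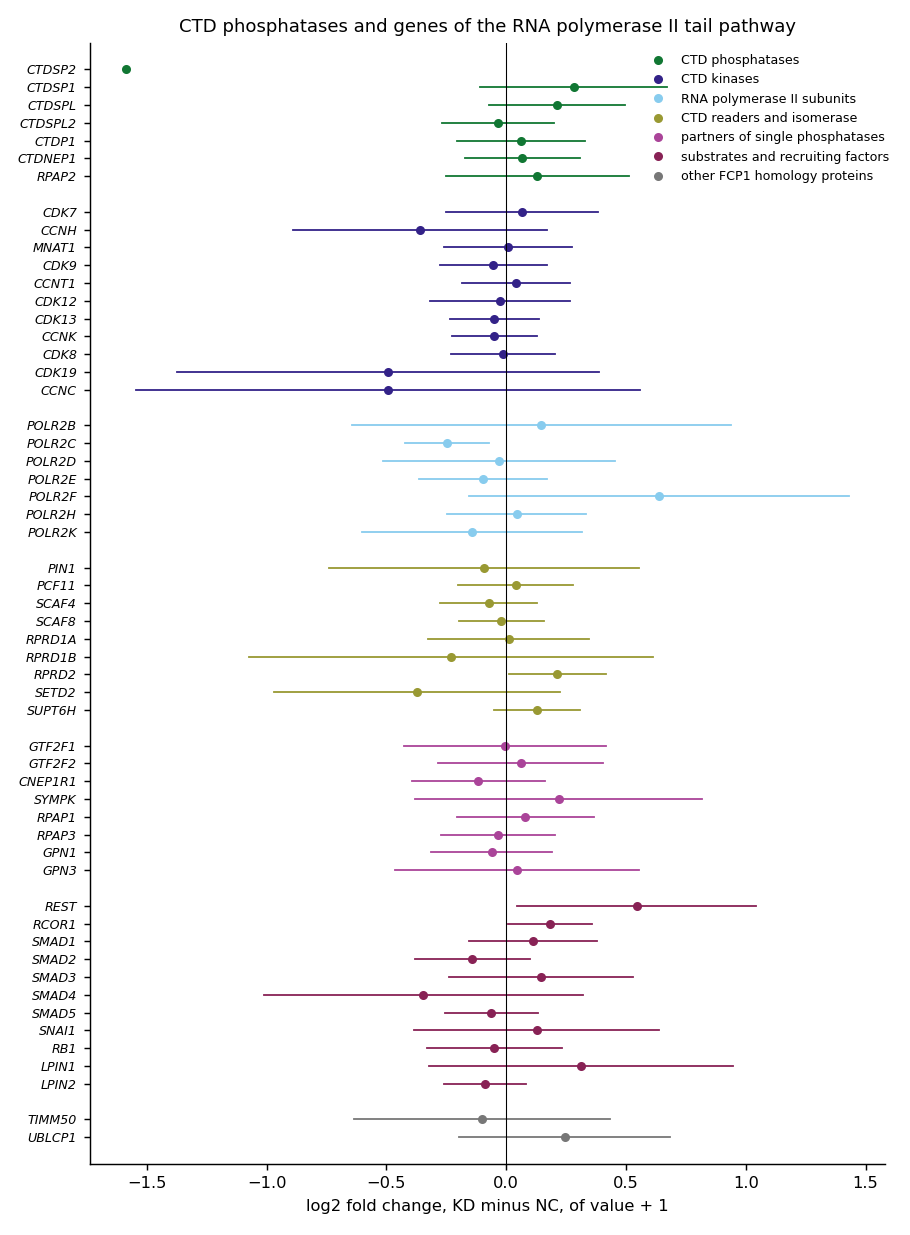
Log2 fold change (KD minus NC, of value + 1) of the CTD phosphatases and of the listed genes around the polymerase tail. Points are estimates and lines the 95% intervals from limma. CTDSP2, chosen on this contrast and drawn without an interval, stands at -1.59, and the points of all other genes lie between -0.49 and 0.64.

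Since neighbouring genes can share reads or regulation, the 5 protein coding genes on each side of CTDSP2 were listed. Of these 10 genes 9 were found and 6 passed the filter. None was called in limma with Benjamini-Hochberg adjustment, and 0 passed an unadjusted p of 0.05, beside 0.159% and 4.61% of all genes tested. In none of the 6 were the groups apart, beside 9.79%, and their median log2 fold change was -0.03. ATP23, a mitochondrial peptidase gene 44.0 kb away on the higher side, was 435, 390 and 371 in NC and 349, 371 and 381 in KD, and its groups overlapped. Its log2 fold change was -0.12 with a limma Benjamini-Hochberg adjusted p of 0.997, and ranged from -0.17 to -0.05 with 1 library left out. On the higher side, the genes after ATP23 lay 933.8 kb or farther from CTDSP2. The extremes were TSFM at -0.29, 24.3 kb away, and FAM19A2 at 0.21, 3259.2 kb away, both with overlapping groups. TSFM stood at 0.032 without NC replicate 2. FAM19A2 stood at -0.13 without NC replicate 3 and at 0.55 without NC replicate 1. EEF1AKMT3, a lysine methyltransferase gene below the filter, had all KD libraries above all NC libraries, with means of 8.19 and 5.67. Among the genes tested, which leave it out, 4.85% were apart in this direction. EEF1AKMT3 was named after its values were seen.

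AVIL, the gene of the actin-binding protein advillin, is the nearest neighbour of CTDSP2. It lies on the same strand from 23087946 to 23110602, and only 763 nt separate it from the 3′ end of CTDSP2. Its abundance was 12.5, 11.7 and 6.86 in NC and 5.84, 0.717 and 1.10 in KD. Every KD library was below every NC library, beside 4.94% of all genes tested. The mean of AVIL over the 6 libraries, 6.45, was under the filter of 10, so AVIL was not tested and is not among those genes. The values correspond to about 12, 8 and 8 reads in NC and 6, 1 and 1 in KD. Allowing for depth, the ratio of KD to NC was 0.239 with the reads of each group pooled. Its 95% exact interval of 0.0941 to 0.538 covers counting error only and leaves out the spread between libraries. Without the filter, the log2 fold change of AVIL was -1.92 with an unadjusted p of 0.00833 in limma, which a Benjamini-Hochberg adjustment over all genes took to 0.829.

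The AVIL mRNA shared 0 of its stretches of 31 bases with the mRNA of another gene. Whether reads running past the end of CTDSP2 were assigned to AVIL was not tested, and the library kit is not stated to mark the strand.

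**Figure D4:**
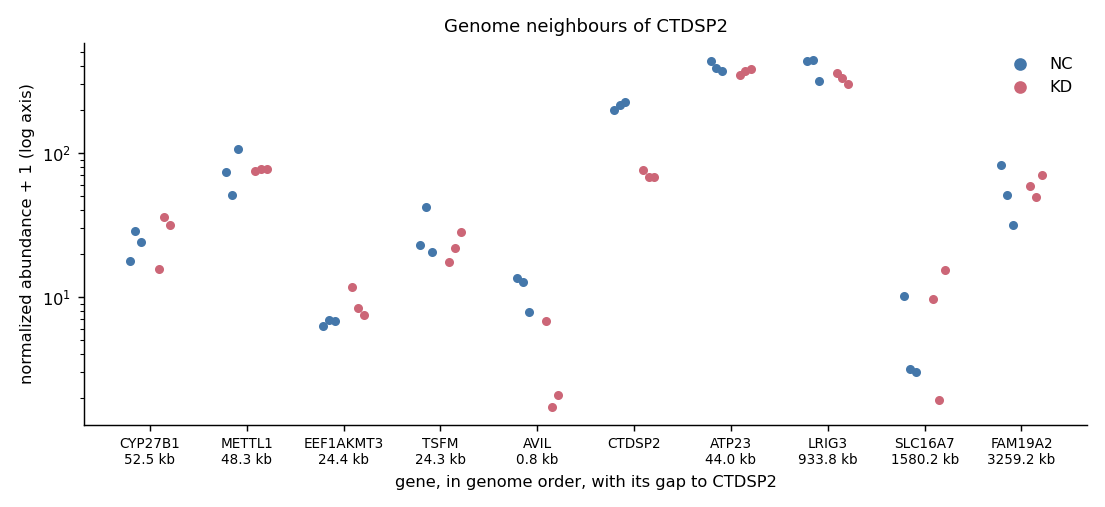
Normalized abundance + 1 (logarithmic axis) of CTDSP2 and the 9 of its 10 nearest protein coding neighbours that were found, in genome order with the gap to CTDSP2 in kb. Points are the 3 NC and the 3 KD libraries. The KD points of CTDSP2 lie far below its NC points, those of AVIL, 0.8 kb away and not tested, lie below with little gap between the nearest, and those of ATP23 at 44.0 kb overlap.

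The genes whose profile over the 6 libraries was most like that of CTDSP2 were FBXW5, HDDC2, TRAPPC2, LIMA1 and TM4SF5. Likeness was measured as the root mean square difference of the log2 values after centring each gene, which was 0.235, 0.319, 0.330, 0.353 and 0.381 in this order. FBXW5, which encodes a substrate receptor of a ubiquitin ligase, was 18.8, 23.5 and 16.2 in NC and 8.77, 6.49 and 6.56 in KD. It was near the detection filter, as was TRAPPC2, with means of 15.8 in NC and 7.345 in KD. LIMA1, an actin-bundling protein, was 670, 476 and 446 in NC and 159.5, 99.7 and 163 in KD. All 5 were lower in KD, with log2 differences from -1.92 for LIMA1 to -0.95 for TM4SF5, which the measure of likeness itself brings about.

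**Figure D5:**
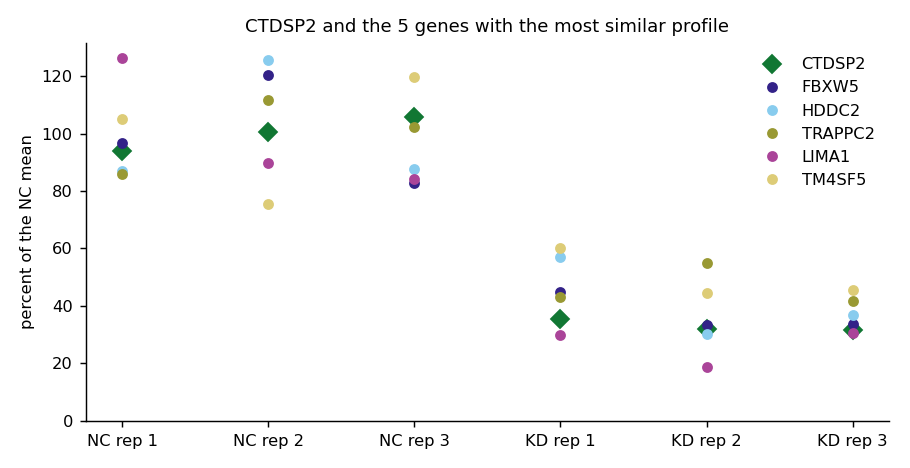
Abundance in each library as a percent of the gene's own NC mean, for CTDSP2 (diamonds) and the 5 genes with the most similar profile (circles). CTDSP2 stands between 31.6% and 35.3% in the KD libraries, and the points of all 5 other genes are lower in KD than in NC as well.

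The make-up of the samples was checked against marker genes. Of 11 oocyte and early embryo markers 9 were found, NLRP5 and DPPA3 not being among them, and all 9 were detected in every library. Their summed abundance was 75054, 72546 and 67747 in NC and 82328, 79632 and 67027 in KD, with the importin KPNA7 at the highest value (not divided by length), and none was called in limma with Benjamini-Hochberg adjustment or passed an unadjusted p of 0.05, beside 0.159% and 4.61% of all genes tested. Of 10 markers of the cumulus and granulosa cells that surround the oocyte 7 were found, with sums of 17.3, 23.8 and 28.8 in NC and 32.8, 18.6 and 64.7 in KD. The highest value among them was that of STAR, a steroidogenic transport protein, at 5.29 to 23.4, and between 1 and 3 of the 7 were at 0 in each library. FSHR, HAS2 and LHCGR were not found by name. The sum was highest in KD replicate 3. Without that library, the log2 difference of CTDSP2 was -1.56, beside -1.59 with all 6. In limma, 19 genes were then called, 16 of them shared with the fit to all 6. The part of cumulus and granulosa cells in the results was not tested.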

How the data were processed

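The authors assigned reads to Sscrofa11.1 transcripts with Salmon 0.14.1 and used DESeq2, per the labels. Their deposited table gives a normalized signal for each Ensembl gene and library. Low values were multiples of a step per library only in part (43.1% to 66.1% within 0.05 reads of a whole number), so no count test was run, and the counting errors and the interval for AVIL rest on read numbers estimated from that step. After the filter at a mean of 10, log2(value + 1) was fitted with limma 3.58.1 (R 4.3.3), using a variance trend and Benjamini-Hochberg adjustment over 11986 genes. This scale understates changes of low genes. Exact two-sided permutation tests (smallest p 0.1) used scipy 1.17.1 under Python 3.11.15, with numpy 2.4.6, pandas 2.3.3, pysam 0.24.0, biopython 1.88 and matplotlib 3.10.9. The fit was tested on simulated data. The study describes its replicates as independent, and p-values measure the spread between these pools.

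RefSeq models of Sscrofa11.1 gave positions, sequences and lengths, and 9763 tested genes (81.5%) matched by symbol. Named genes are SIN3A, the listed phosphatases, the 5 genes most like CTDSP2 and its nearest neighbours. The highest, lowest and called members of each list are named too. The marker lists are the exception, where the gene with the highest abundance is named. A further listed gene is not reported here. Members and lists were chosen with earlier results of these data known. The settings varied were the pseudocount (0.1 or 10), the filter (none, or a mean of 100), the scaling (TMM-like with scales of 0.992 to 1.01, or quantile), the variance trend, the robust option, a replicate block and the omission of each library. The siRNA sequences were not compared with CTDSP2 or any other transcript. The added GFP and RFP mRNAs were not used here, so total mRNA per embryo was not assessed.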

Additional observations from a re-analysis of the deposited data

How the results depend on the processing

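The log2 difference of CTDSP2 was -1.48 with a pseudocount of 10 and -1.64 to -1.55 with 1 library left out. No other CTD phosphatase was called in limma under any alternative run, and 0 genes of the kinase, subunit, reader, partner, substrate, FCP1 homology and neighbour lists were, while the marker lists were not rerun. Without division by length, chosen after seeing the data, the CTDSP2 share was 30.0% in NC and 10.8% in KD. The number of genes called among all tested depended more on the settings. It was 19, and 0 without the variance trend, where 622 genes passed an unadjusted p of 0.05 beside 553 with it. It was 11 to 19 with 1 library left out. Without NC replicates 1, 2 and 3 it was 16, 12 and 12, and without KD replicates 1, 2 and 3 it was 13, 11 and 19. Quantile scaling gave 14, the robust option 15, a mean of 100 gave 20 and no filter 23. The cause was not tested.

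Of 406 comparisons of 28 named genes with an alternative, 390 kept their direction and their side of the threshold or, for genes with no test, a value within the spread between replicates. The 11 reversals all came from leaving out 1 library and concerned genes that were not called, whose values ranged from -0.053 to 0.21 for CTDP1, from -0.00073 to 0.15 for CTDNEP1, from -0.0019 to 0.30 for RPAP2, from -0.024 to 0.17 for CDK7, from -0.20 to 0.011 for CNEP1R1, from -0.030 to 0.54 for SYMPK, from -0.31 to 0.076 for TIMM50, from -0.49 to 0.032 for TSFM and from -0.13 to 0.55 for FAM19A2. For CTDP1 the turn also came without NC replicate 1 (-0.025) and for CDK7 without KD replicate 3 (-0.011). With a pseudocount of 10, FBXW5 stood at -0.77 and TRAPPC2 at -0.57. Adjusted p-values over all alternatives ran from 0.901 to 1.0 for CTDSPL and from 0.911 to 1.0 for CTDSP1 in limma.

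With a replicate block, 26 genes were called, including all 19 of the fit without it. The numbers were not taken as pairing the libraries. The correlation of same-numbered libraries after subtraction of the group means was 0.109, 0.111 and 0.0872, and every library correlated best with its own number, a hint from the data and not from the design. About 61 to 94 reads of CTDSP2 per KD library and 1 to 12 reads of AVIL per library limit the precision of their values.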
